A study of Mus musculus with 18 samples.

Results

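Type D small cell lung cancer (SCLC) cells in which Ppia had been targeted with sgPpia#3.2 were compared with the same cells carrying an sgRNA against β-galactosidase (sgBgal), in the state in which p53 is not expressed (Control). The comparison used 6 of the 18 RNA-sequencing samples, namely the Control sample of each sgRNA in each of 3 cell lines, and the samples were paired by line. Levels are in TPM, a share of all transcripts corrected for gene length. Genes at 1 TPM or more in at least 3 of these 6 samples were kept, 11722 of 25239. The study asked how p53 acts when it is restored in SCLC and whether cyclophilins take part, and these samples show the cells before p53 is restored. Values for single lines are given in the order 4711-1, 4711-18, 4716-11.

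By the study's methods, the lines came from individual lung tumors of mice of mixed B6J/129S4vJae background that were Rb1 fl/fl, Trp53 XTR/XTR, Rbl2 fl/fl and carried Rosa26 FlpO-ER. Tumors were started with an adenovirus in which the CMV promoter drives Cre. Cre deletes Rb1 and Rbl2 and inverts the XTR gene trap, so that p53 is trapped (TR) until 4-OHT activates FlpO-ER and restores it. All 6 samples shared these alleles, the lentiviral Cas9 vector and 72 h of vehicle (EtOH), and differed in the sgRNA. The sgPpia#3.2 cells were selected cells in which the CypA protein was reduced though not absent. Each condition was sampled once per line, so the spread is that between 3 lines, of which 4711-1 and 4711-18 share the first number of their name.

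Ppia encodes cyclophilin A (CypA), an abundant cytosolic enzyme that turns proline bonds between their cis and trans forms, and the main cellular receptor of cyclosporin A. The complex of CypA with cyclosporin A inhibits calcineurin, the phosphatase that sends NFAT factors to the nucleus. Other cyclophilins reside in mitochondria (Ppif), in the secretory pathway (Ppib, Ppic) or in the spliceosome (Ppie, Ppih and others). p53 is a transcription factor that induces genes of arrest and death, and in the trapped state its target genes are left to their basal control.

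The site of sgPpia#3.2 is shown because it sets what was edited in these cells. It lies on the forward strand of chromosome 11 at chr11:6418237-6418259 (GRCm38), in exon 3 of the coding transcript Ppia-202, an exon of 89 bases. The letters are those of the GENCODE M21 transcript, 5′ to 3′, and the capitals mark the NGG motif (PAM) next to which Cas9 cuts.
sgPpia#3.2 site in Ppia: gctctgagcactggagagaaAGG
The same 20 bases with an NGG behind them occur in annotated transcripts of 22 other genes, of which 19 are annotated as pseudogenes of some kind. Only 2 of the 22 have a row in the deposited table and 1, Gclm, was among the genes tested. Reads of Ppia and of its near-identical processed copies can be hard to tell apart, and the table holds no other row named after Ppia.

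The sequencing depth of the samples is unknown in absolute terms, because TPM sum to the same total in each sample. Steps between low values put the relative depth at 1, 1.18 and 1.44 with sgBgal and at 1.63, 1.08 and 1.57 with sgPpia#3.2. Trp53 was between 5.45 and 8.41 TPM in all 6 samples, Rb1 between 3.36 and 9.44 and Rbl2 between 1.98 and 3.97, and gene totals do not show whether a deleted exon is missing. None of these 3 genes passed the test (log2 fold changes of -0.25, 0.053 and -0.079). Of the transcripts that define SCLC subtypes and neuroendocrine cells, Neurod1, Pou2f3, Calca and Chga were at or near 0, the highest value being 0.156 TPM for Neurod1. Yap1 was between 63.2 and 98.8 TPM, Cdh1 between 351 and 855 and Krt8 between 5400 and 8340. Epcam, another epithelial marker, was much lower, between 0.0796 and 6.25 TPM. The cells are called Type D cells here after their label. Other neuroendocrine markers were present in all 6 samples, with Ncam1 between 10.3 and 17.5 TPM, Syp between 3.03 and 6.12 and Uchl1 between 1.35 and 2.81, and Insm1 was at 2.45 and 3.36 TPM in 4711-1. Markers of endothelial, immune, stromal and red blood cells (19 genes) summed to between 5.52 and 8.88 TPM, with Lum, Hbb-bs and Hba-a1 at 0 in all 6 samples and Cd68 the highest in each. The largest sum, 8.88 TPM, was in the sgPpia#3.2 sample of 4711-18, where Cd68 alone made up 7.13 TPM and 10 of the 19 markers were at 0. That sample also stood apart in many of the genes described here.

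The difference between sgPpia#3.2 and sgBgal was tested with limma on log2(TPM + 1), with the cell line as a block. Fold changes are on this log2 scale and are negative where the value was lower with sgPpia#3.2. Calls required both a log2 fold change of 1 or more in either direction and a p below 0.05 after Benjamini-Hochberg adjustment over these genes. Of 11722 genes, 2 were called and both fell, Ppia and Muc1, which is 0.0171% of the genes tested. At an unadjusted p under 0.05, 1297 genes (11.1%) were lower and 307 (2.62%) higher. Rescaling the samples by median-of-ratios factors moved the median of all genes from -0.083 to 0.00044 and turned this split into 658 lower and 717 higher, so a lean to one side over many genes depends on the scaling. Apart from the 2 called genes, no gene had an adjusted p below 0.216 with limma.

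Ppia was the gene with the lowest p. It was at 2704, 2575 and 2849 TPM with sgBgal and at 1073, 658 and 1207 TPM with sgPpia#3.2. The 2 groups do not overlap, and the value with sgPpia#3.2 was 39.7%, 25.5% and 42.4% of that with sgBgal. Among all genes of the table, Ppia ranked 39 by its mean level with sgBgal. It fell by 1.51 on the log2 scale (standard error 0.15, adjusted p = 0.0012). The call is lost with no replicate block (adjusted p = 0.408), with the 6 samples only (0.465) and without 4711-1, 4711-18 or 4716-11 (0.18, 0.122 and 0.126), while the fold change then lies between -1.65 and -1.28. A two-sided exact permutation test of 3 against 3 samples gave p = 0.1, the smallest it allows, and an exact sign-flip test over the 3 lines p = 0.25, also its smallest. In bulk RNA, fewer cells with Ppia transcript and less transcript per cell cannot be told apart.

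The loss of Ppia transcript was of similar size in the separate libraries made after p53 was restored. There Ppia was at 2060, 1551 and 2730 TPM with sgBgal and at 873, 769 and 1233 TPM with sgPpia#3.2, and the differences were -1.24, -1.01 and -1.15 against -1.33, -1.97 and -1.24 in Control cells. The difference between the 2 states was -0.38 (standard error 0.21, limma adjusted p = 1). With the other guide, sgPpia#4.1, which shares the sgBgal samples as its control, Ppia stood at 1713, 1684 and 1952 TPM in Control cells, which is -0.66, -0.61 and -0.55 from sgBgal.

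Of the cyclophilin family, 16 of 17 members were tested and Ppia was the 1 called. The remaining 15 lay between -0.30 and 0.26 on the log2 scale, and the family's median was -0.13 against -0.083 for all genes. By line it was -0.032, -0.32 and -0.02, and without 4711-18 it was -0.017 against -0.094. In the family 4 genes were lower and 0 higher in 3 of 3 lines, against 30.3% lower and 8.68% higher among all genes tested. Ppif, the mitochondrial cyclophilin D of the permeability transition pore, was at 15.9, 26.5 and 12.5 TPM with sgBgal and 11.9, 23.1 and 9.92 TPM with sgPpia#3.2. It was lower in 3 of 3 lines, at -0.30 with an adjusted p of 0.375. Ppie, a spliceosomal cyclophilin, was at 63.6, 67 and 96.2 TPM with sgBgal and 84.2, 93.1 and 90.5 TPM with sgPpia#3.2, higher in 2 of 3 lines, at 0.26 with an adjusted p of 0.331. No cyclophilin other than Ppia differed by an amount that this test separates from the spread between lines.

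The other prolyl isomerases and the calcineurin pathway gave no call either. In the list of FKBP and parvulin isomerases (16 tested), 4 genes were lower and 1 higher in 3 of 3 lines, with a median of 0.0086, which was 0.053 without 4711-18. Fkbp5, a cochaperone of steroid receptors, was at 46, 79.2 and 58.2 TPM with sgBgal and 38.7, 49.9 and 40.1 TPM with sgPpia#3.2 (log2 fold change -0.48, adjusted p = 0.339). Of 9 tested genes of calcineurin and NFAT, 4 were lower and 2 higher in 3 of 3 lines, with a median of -0.067, which was -0.135 without 4711-18. Ppp3ca, a catalytic subunit of calcineurin, was at 34.8, 58.4 and 46.8 TPM with sgBgal and 49.2, 84.4 and 48.7 TPM with sgPpia#3.2 (log2 fold change 0.36, adjusted p = 0.374). Of the other catalytic subunit genes, Ppp3cb had differences of -0.21, -0.24 and -0.077 and Ppp3cc of 0.061, 0.46 and 0.24. Of the 17 spliceosome proteins listed as partners of cyclophilins, 10 were lower and 0 higher in 3 of 3 lines, with a median of -0.21 and none called. The medians by line were -0.095, -0.40 and -0.10, and without 4711-18 the median was -0.089, against -0.094 for all genes. Prpf8, at the centre of the spliceosome, was the lowest of them with a log2 fold change of -0.42 (adjusted p = 0.216) and differences of -0.19, -0.74 and -0.33, and Snrnp200, a helicase of the same particle, had differences of -0.18, -0.68 and -0.22. After median-of-ratios rescaling, the count of this list lower in 3 of 3 lines was 5 of 17, against 18.6% of all genes.

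Gclm, the regulatory subunit of the enzyme that starts glutathione synthesis, holds an exact match to the guide in a noncoding transcript. It was at 122, 184 and 158 TPM with sgBgal and 108, 95.8 and 148 TPM with sgPpia#3.2. It was lower in 3 of 3 lines and most in 4711-18, but the fold change of -0.40 did not pass the test (standard error 0.23, adjusted p = 0.445).

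**Figure D1:**
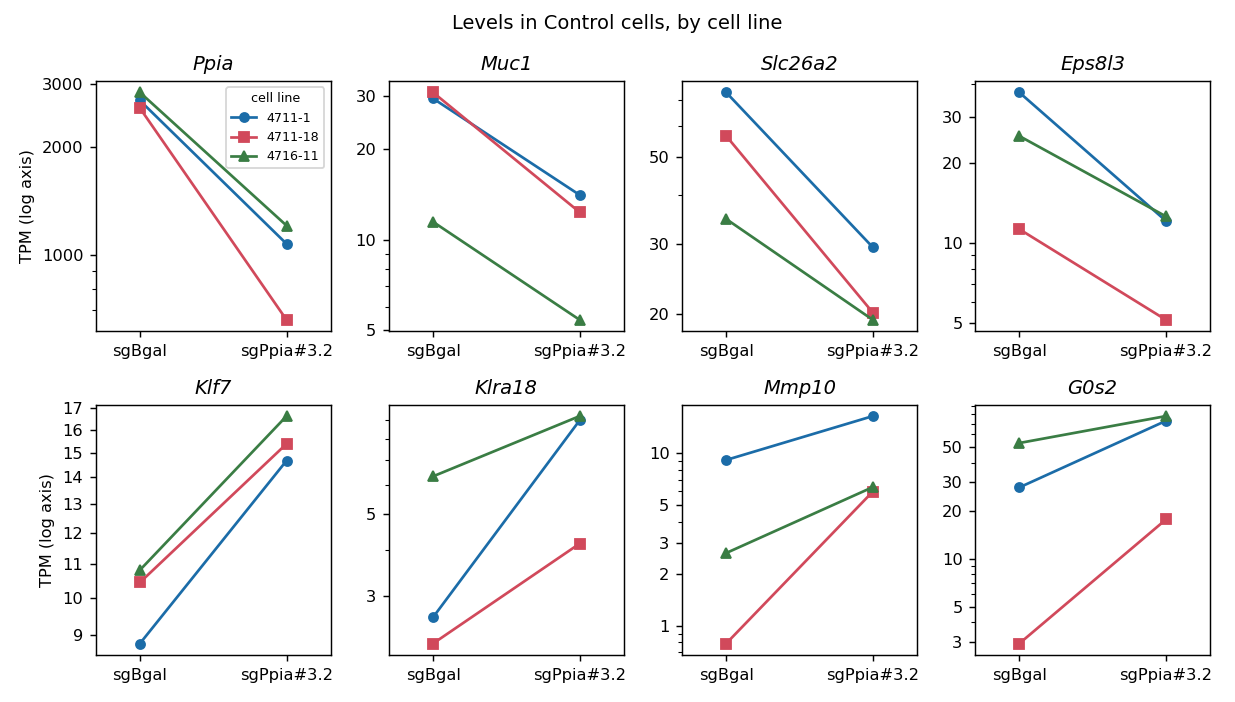
Levels of 8 genes in Control cells with sgBgal and with sgPpia#3.2, in TPM on a log axis, with 1 line per cell line and no error bar because each condition was sampled once per line. Ppia and Muc1 passed the test, and the other 6 genes differed in the same direction in all 3 lines without passing it.

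Muc1, a mucin of the surface of epithelial cells, was the other called gene. It was at 29.5, 30.9 and 11.5 TPM with sgBgal and 14.1, 12.3 and 5.42 TPM with sgPpia#3.2. The values of the groups overlap, because Muc1 is lower in 4716-11 than in the 4711 lines with both sgRNAs, but within each line the level with sgPpia#3.2 was 47.8%, 40% and 47.2% of that with sgBgal. It fell by 1.08 on the log2 scale (standard error 0.15, adjusted p = 0.0311). The permutation test over samples, which does not know the pairing, gave an exact p of 0.3, and the sign-flip test over lines the smallest value it allows, 0.25. The call is lost under median-of-ratios rescaling (adjusted p = 0.0827), with no filter on low values (0.0992), with the 6 samples only (0.465), with no replicate block (1) and on leaving out any line (from 0.408 to 0.438).

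In Restored cells, Muc1 did not differ in this way. It was at 7.6, 9.31 and 3.73 TPM with sgBgal and at 8.07, 8.34 and 3.99 TPM with sgPpia#3.2, all below the Control sgBgal sample of the same line. The change in Control cells minus that in Restored cells was -1.08 (standard error 0.21) with an unadjusted p of 0.00017 and an adjusted p of 1. No gene of 11722 passed that test with limma, and 153 had an unadjusted p under 0.05. With sgPpia#4.1, again against the shared sgBgal samples, Muc1 differed by -0.37, -0.20 and -0.14 in Control cells.

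Of the epithelial list Muc1 was the 1 gene called. Of its 22 tested genes, 11 were lower in 3 of 3 lines and 0 higher, against 30.3% lower among all genes, and the median was -0.30. Vil1, an actin-bundling protein of microvilli, had differences of -1.11, -0.21 and -0.59. Elf3, an epithelial transcription factor of the ETS family, was at 66.1, 75.9 and 75.1 TPM with sgBgal and 36.9, 67 and 52.7 TPM with sgPpia#3.2 (log2 fold change -0.50, adjusted p = 0.255). Ehf, of the same family, was lower in 4711-1 and 4716-11 (-1.60 and -0.50) and higher in 4711-18 (0.26), and the keratin Krt20 had the same pattern (-0.73, 0.33 and -0.98). Rescaling left 10 of the 22 lower in 3 of 3 lines. The median of the list without 4711-18 was -0.30, and 17 of 22 were then lower in both remaining lines, against 48.3% of all genes. In Restored cells the medians of this list were -0.029, 0.17 and -0.22.

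No gene of the mesenchymal and matrix list was called. Of 20 tested, 5 were higher and 0 lower in 3 of 3 lines, and the median was 0.13, or 0.085 without 4711-18. Mmp14, a collagenase of the cell surface, was at 4.76, 7.18 and 0.379 TPM with sgBgal and 9.15, 17.2 and 0.363 TPM with sgPpia#3.2. It was thus higher in the 4711 lines and level in 4716-11. The SCLC lineage and neuroendocrine list had 13 of 26 members above the filter, with 3 lower and 1 higher in 3 of 3 lines and a median of -0.092.

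Beyond the called genes, the 10 genes with a mean of at least 5 TPM in 1 of the 2 groups that were lower in 3 of 3 lines and whose smallest difference was largest are described next, without a test of the choice. Besides Ppia and Muc1 they were Eps8l3, Snora30, Slc26a2, Snora5c, Ccl2, Mir3113, Ptger4 and Depp1. The last member, Depp1, had a smallest difference of -0.77, and the next gene, Egr3, one of -0.75. The adjusted p of the 8 genes that were not called lay between 0.216 and 0.33. Of the 10 genes, 6 were lower in 3 of 3 lines in Restored cells too, a share to be read beside 35.6% of all genes tested. The 6 include Ppia, the target of the guide, and Snora5c, whose difference in the Restored cells of 4711-18 was only -0.0012.

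Slc26a2, a sulfate transporter needed for the sulfation of matrix, was at 73.1, 56.7 and 34.8 TPM with sgBgal and 29.5, 20.1 and 19.3 TPM with sgPpia#3.2, and the groups do not overlap. Its log2 fold change was -1.18 (standard error 0.29), and in Restored cells its differences were -1.18, -1.34 and -0.59. Eps8l3, of a family of actin regulators, was at 37.1, 11.3 and 25.4 TPM with sgBgal and 12.1, 5.13 and 12.6 TPM with sgPpia#3.2, lower in each line, with overlap because 4711-18 was low with both sgRNAs. Depp1, a protein induced by FOXO factors and fasting, had differences of -2.63, -2.27 and -0.77, and Ptger4, a receptor of prostaglandin E2, of -1.12, -1.78 and -0.78. Both were also lower in 3 of 3 lines in Restored cells.

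Ccl2, the chemokine that attracts monocytes, was at 173, 149 and 213 TPM with sgBgal and 42.6, 85.4 and 121 TPM with sgPpia#3.2, without overlap. In Restored cells its differences were -0.63, 0.56 and 0.12. The remaining 3 genes are short RNAs, the small nucleolar RNAs Snora30 (107 bases) and Snora5c (101 bases) and the microRNA gene Mir3113 (76 bases). They lie within Srcap, Tbrg4 and Huwe1, which had log2 fold changes of -0.30, -0.28 and -0.34 against -1.29, -1.09 and -1.20 for the short RNAs. The 3 surrounding genes were each lowest in 4711-18, with differences there of -0.58, -0.53 and -0.46. TPM divide by length, so few reads stand behind such values, and how reads were split between these RNAs and the genes around them is not given in the sources used here.

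**Figure D2:**
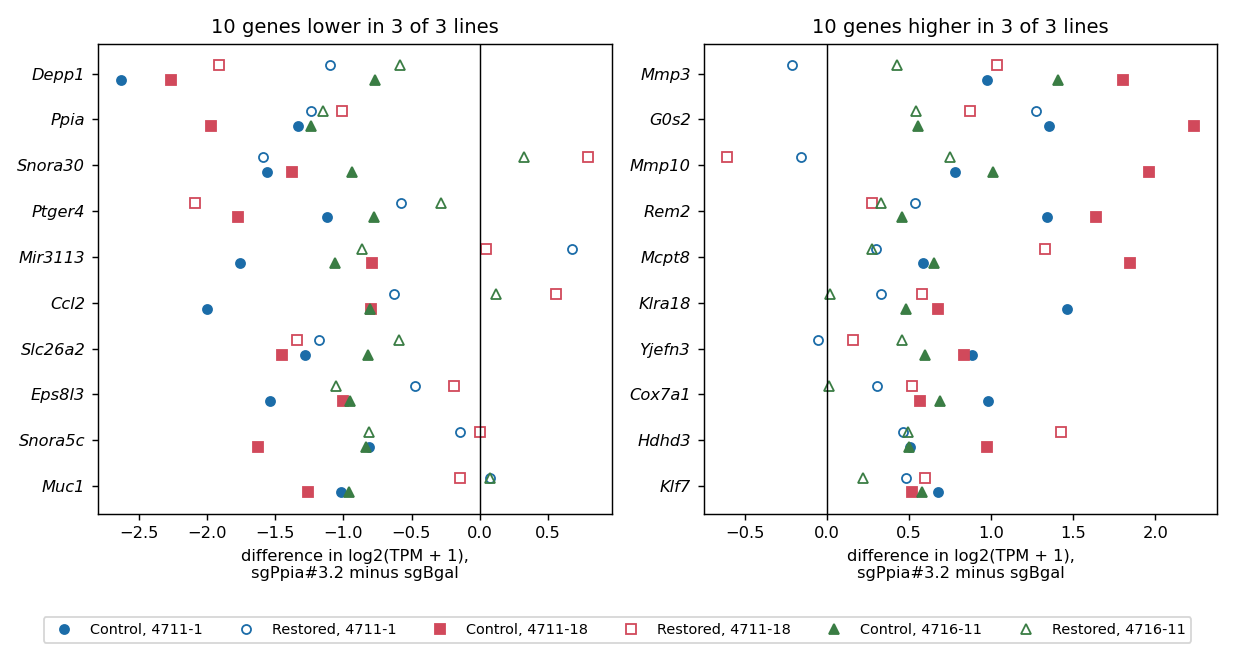
Difference in log2(TPM + 1) between sgPpia#3.2 and sgBgal in each line, for the 10 genes on each side whose smallest difference over the 3 lines was largest, lower on the left and higher on the right. Filled symbols are Control cells, which chose the genes, and open symbols are Restored cells. On the left 6 of the 10, the targeted gene Ppia included, and on the right 7 of the 10 kept their sign in all 3 Restored lines.

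The 10 genes at the other end were Mmp3, Mmp10, Yjefn3, Mcpt8, Cox7a1, G0s2, Klf7, Hdhd3, Klra18 and Rem2. Their smallest differences ran from 0.459 for Rem2 to 0.977 for Mmp3, and the next gene, Plekho1, stood at 0.457. None was called, with adjusted p-values from 0.216 to 0.491. In Restored cells 7 of the 10 were higher in 3 of 3 lines, beside 10.6% of all genes tested.

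Mmp3 and Mmp10, the stromelysins, are matrix metalloproteinases. Mmp3 was at 16.7, 2.19 and 6.31 TPM with sgBgal and 33.9, 10.1 and 18.4 TPM with sgPpia#3.2. Mmp10 was at 9.09, 0.788 and 2.63 TPM with sgBgal and 16.3, 5.97 and 6.33 TPM with sgPpia#3.2. Each was higher within every line while the groups overlap, and in Restored cells Mmp10 was lower in 2 of 3 lines (-0.16, -0.61 and 0.75).

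Klf7, a transcription factor of the Krüppel-like family, was the most even of the 10. It was at 8.8, 10.4 and 10.8 TPM with sgBgal and 14.7, 15.4 and 16.6 TPM with sgPpia#3.2, without overlap, with a log2 fold change of 0.59 (standard error 0.14) and differences of 0.48, 0.60 and 0.22 in Restored cells. G0s2, an inhibitor of the lipase that opens fat droplets, was at 27.9, 2.94 and 53 TPM with sgBgal and 72.9, 17.6 and 78.1 TPM with sgPpia#3.2. It was higher in 3 of 3 lines in Restored cells as well (1.28, 0.87 and 0.54). Cox7a1, a subunit of cytochrome c oxidase, was at 9.1, 22.2 and 14.5 TPM with sgBgal and 18.9, 33.3 and 24 TPM with sgPpia#3.2. Klra18, named for a family of natural killer cell receptors, had the lowest unadjusted p of the 10 (0.000332) at 2.62, 2.22 and 6.32 TPM with sgBgal and 8.98, 4.15 and 9.22 TPM with sgPpia#3.2. Rem2, a small GTPase, Mcpt8, a mast cell protease, Hdhd3 and Yjefn3 made up the rest, with log2 fold changes of 1.15, 1.03, 0.66 and 0.77. Of these, Mcpt8 had differences of 0.59, 1.85 and 0.65.

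No p53 target was called. Of 29 tested, 9 were lower and 0 higher in 3 of 3 lines, against 30.3% and 8.68% of all genes. Their median was -0.081, near the -0.083 of all genes. The medians by line were -0.29, -0.07 and -0.089, against -0.106, -0.068 and -0.084 for all genes, and 26 of 29 were lower in 4711-1. Without 4711-18 the median was -0.19, and 18 of 29 were lower in both lines, against -0.094 and 48.3% for all genes. After rescaling, 6 were lower and 2 higher in 3 of 3 lines, against 18.6% and 16.7% of all genes. Cdkn1a, which encodes the cell cycle inhibitor p21, was at 122, 154 and 107 TPM with sgBgal and 99.4, 369 and 101 TPM with sgPpia#3.2, so 1 sample was high. Mdm2, which encodes the ubiquitin ligase of p53, was at 93.3, 88.8 and 68.6 TPM with sgBgal and 83.6, 95.7 and 64.4 TPM with sgPpia#3.2. Tigar, a phosphatase that lowers glycolysis, was the target with the lowest p, at 26.1, 26 and 28.2 TPM with sgBgal and 22.2, 19.1 and 20.8 TPM with sgPpia#3.2, without overlap (log2 fold change -0.36, adjusted p = 0.227). Btg2, an antiproliferative gene, was lower in the 4711 lines and higher in 4716-11 (-0.82, -1.88 and 0.24).

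The study's own lists were chosen on other libraries, made from these same 3 Type D lines and from 3 Type V lines. Its Type D signature holds genes that were higher in Type D cells than in Type V cells, the study's other class of lines. Of 107 tested, 39 were lower and 5 higher in 3 of 3 lines, against 30.3% and 8.68% of all genes, with a median of -0.11, 25 lower and 3 higher at an unadjusted p under 0.05, and none called. Without 4711-18, 75 of 107 were lower in both lines, at a median of -0.22, against 48.3% and -0.094 for all genes. Klhl13, an adaptor of a ubiquitin ligase, was at 139, 160 and 128 TPM with sgBgal and 76.3, 63.3 and 121 TPM with sgPpia#3.2. Lgals2, a galectin, had differences of -0.41, -1.34 and -0.38, whereas Gzme, a granzyme gene, was higher in each line (0.14, 1.55 and 0.63). The Type V signature (34 tested) had 6 genes lower and 4 higher, with a median of -0.019.

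The 6 Modules are clusters of genes that respond to p53 restoration. Module 4 had the lowest median of them, -0.42 over 75 tested genes, with 42 lower and 1 higher in 3 of 3 lines and Muc1 as the 1 called. The medians of its single lines were -0.40, -0.48 and -0.24. Neurl1b, a ubiquitin ligase of Notch ligands, was at 22.6, 33.5 and 21.1 TPM with sgBgal and 7.78, 10.1 and 12.3 TPM with sgPpia#3.2, without overlap, and Iqgap2, a scaffold of the actin cytoskeleton, at 43.1, 66.6 and 31 against 19.7, 21.4 and 21.7 TPM. Lbp, which binds lipopolysaccharide, had differences of -2.05, -0.20 and -0.96. After rescaling, 31 of 75 stayed lower in 3 of 3 lines, and in Restored cells the medians of Module 4 were -0.095, 0.27 and -0.22.

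Module 3 (227 tested, median -0.39) had 109 genes lower and 1 higher in 3 of 3 lines, but its medians by line were -0.06, -1.03 and -0.10, so the value rests on 4711-18. Without that line the median was -0.085. Its gene with the largest fold change, Sult1c2, a sulfotransferase, was at 31.6, 9.43 and 48.8 TPM with sgBgal and 5.28, 1.79 and 30.4 TPM with sgPpia#3.2 (log2 fold change -1.65, adjusted p = 0.216). Module 2 (56 tested, median -0.26) had 23 lower and 2 higher, and its median was -0.058 without 4711-18. The small proline-rich proteins of the epidermal envelope, Sprr2b in Module 3 and Sprr2a3 in Module 2, had fold changes of -1.14 and -1.16. Tatdn2 of Module 2, a putative nuclease, was at 72.4, 69.5 and 54.5 TPM with sgBgal and 47, 50.9 and 35.8 TPM with sgPpia#3.2, without overlap.

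Module 5 (90 tested) had 12 genes lower and 17 higher in 3 of 3 lines and a median of 0.038, with medians by line of -0.092, 0.43 and -0.096 and a median of -0.096 without 4711-18. Prss22, a serine protease, was at 15.3, 7.67 and 11 TPM with sgBgal and 31.9, 65.7 and 13.9 TPM with sgPpia#3.2 (log2 fold change 1.42, adjusted p = 0.227). Smox, which oxidizes spermine, was at 29.6, 24.3 and 49 against 41.6, 163 and 53.9 TPM. Wnt7a, a Wnt ligand, had differences of 1.20, 1.40 and 0.15. All 3 were largest in 4711-18. Module 1 (205 tested) and Module 6 (61 tested) had medians of -0.036 and -0.049, with 55 lower and 14 higher and 19 lower and 9 higher. Without 4711-18 these medians were -0.12 and -0.125.

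**Figure D3:**
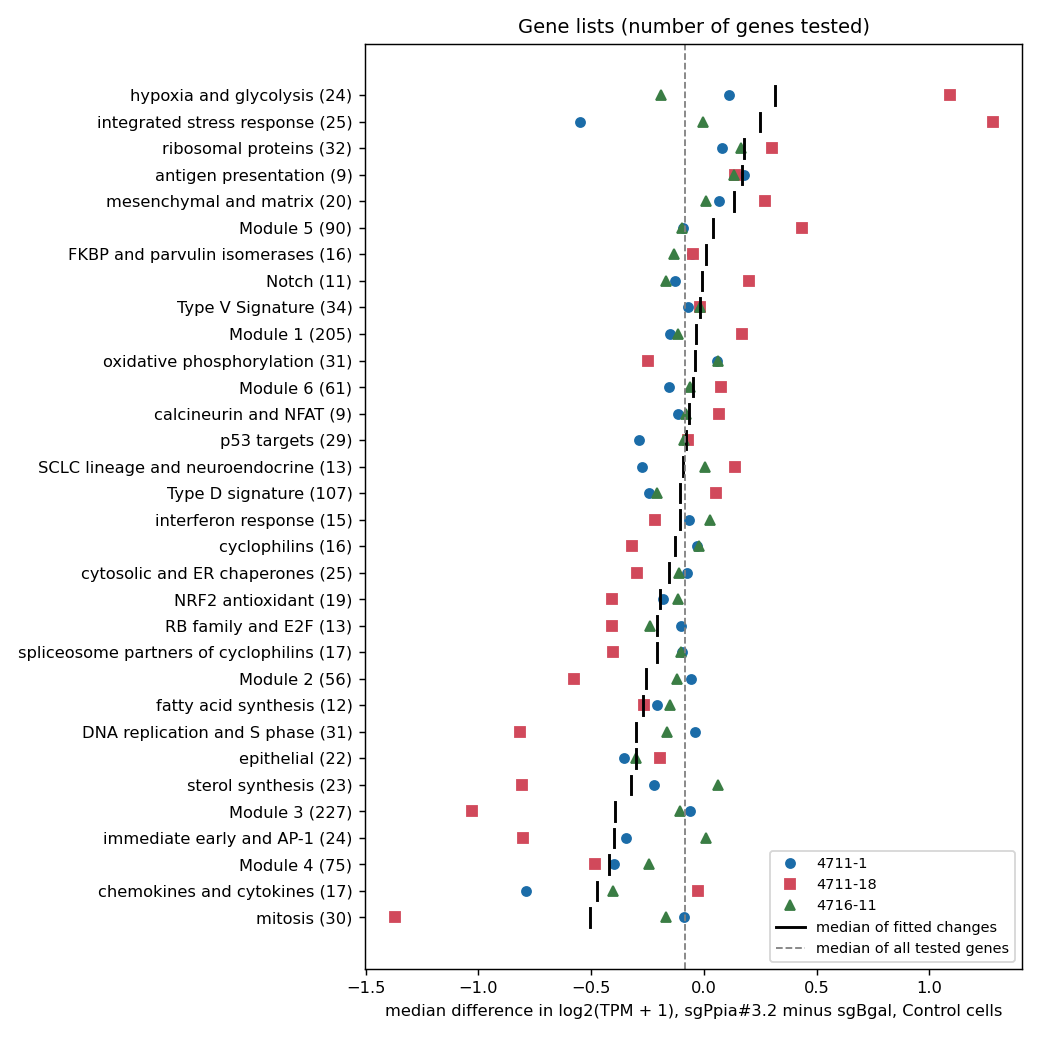
Median difference in log2(TPM + 1) between sgPpia#3.2 and sgBgal in Control cells for each gene list with more than 1 tested gene, per line (symbols) and of the fitted fold changes (black bars), with the number of tested genes in brackets. The dashed line is the median of all tested genes, and the squares of 4711-18 lie farthest from it for mitosis, the integrated stress response, Module 3 and hypoxia and glycolysis.

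No gene of the cell cycle lists was called, and their medians were lowest in 4711-18. The median of all genes was -0.106, -0.068 and -0.084 in the 3 lines. Of 30 mitosis genes, 17 were lower and 0 higher in 3 of 3 lines, and the medians by line were -0.09, -1.37 and -0.17. Mki67, a marker of cycling cells, was at 99.6, 92.5 and 77.2 TPM with sgBgal and 80.6, 23 and 62.1 TPM with sgPpia#3.2. Foxm1, which drives genes of G2 and M phase, was at 67.4, 65.2 and 57.7 against 54.6, 24.7 and 42.3 TPM, and the kinesin Kif20a had differences of -0.24, -1.70 and -0.35. The lowest adjusted p of the mitosis list was 0.38. The median of the list was -0.50 with 4711-18 and -0.10 without it. Of 31 genes of DNA replication and S phase, 16 were lower and 0 higher, with medians of -0.041, -0.81 and -0.16, and the median of the list was -0.30 with 4711-18 and -0.10 without it. Mcm10 and Rrm1, a replication initiator and the large subunit of ribonucleotide reductase, had differences of -0.20, -1.51 and -0.41 and of -0.077, -1.45 and -0.32. Rrm2, the small subunit, was at 567, 318 and 571 TPM with sgBgal and 795, 61.5 and 576 TPM with sgPpia#3.2. The RB family and E2F list (13 tested, median -0.21) had 5 lower and 1 higher, and E2f8, a repressor of the E2F family, had differences of -0.16, -1.91 and -0.31.

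No gene of lipid synthesis was called. In the sterol synthesis list 7 of 23 were lower and 0 higher in 3 of 3 lines, a share near that of all genes, with medians of -0.22, -0.81 and 0.061. The median of the list was -0.325 with 4711-18 and -0.079 without it, against -0.094 for all genes. Insig1, which holds the sterol sensor in the endoplasmic reticulum, was at 264, 365 and 296 TPM with sgBgal and 149, 94.5 and 277 TPM with sgPpia#3.2. The sterol carrier gene Stard4 had differences of -0.46, -1.16 and 0.033. In the fatty acid synthesis list 10 of 12 were lower and 0 higher in 3 of 3 lines, with medians of -0.21, -0.27 and -0.15, and rescaling left 6 of 12. Fads2, a desaturase, Elovl6, an elongase, and Acly, which makes acetyl-CoA in the cytosol, had fold changes of -0.51, -0.46 and -0.35, with adjusted p-values of 0.395, 0.334 and 0.316. Their differences by line were -0.11, -1.20 and -0.23 for Fads2, -0.23, -0.69 and -0.44 for Elovl6 and -0.059, -0.76 and -0.22 for Acly, each lowest in 4711-18. In Restored cells the medians of this list were -0.12, 0.22 and -0.017.

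Of 19 antioxidant genes under NRF2, 10 were lower and 0 higher in 3 of 3 lines, at a median of -0.20, and 9 were lower after rescaling. Gsta4, a glutathione transferase for lipid aldehydes, was at 583, 1395 and 788 TPM with sgBgal and 332, 598 and 664 TPM with sgPpia#3.2, with a fold change of -0.76 (adjusted p = 0.216) and differences of -0.63, -0.50 and -0.33 in Restored cells. Gclc, the catalytic partner of Gclm, was at 132, 167 and 91.4 against 65.8, 71.5 and 80.4 TPM, without overlap. Osgin1 and Pgd, an oxidative stress gene and an enzyme of the pentose phosphate path, had differences of -0.83, -1.09 and -0.11 and of -0.15, -0.83 and -0.32. In the list of cytosolic and ER chaperones 9 of 25 were lower and 1 higher at a median of -0.155, and Hsph1, a cochaperone of HSP70, was at 85.3, 118 and 93.5 against 67.9, 55.6 and 62.3 TPM, without overlap (log2 fold change -0.66, adjusted p = 0.216). Its differences in Restored cells were -0.58, -0.73 and -0.36.

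No ribosomal protein gene was called. Of 32 tested, 16 were higher and 0 lower in 3 of 3 lines, at a median of 0.18, against 8.68% higher among all genes. After rescaling 22 were higher, against 16.7% of all genes. Without 4711-18 the median was 0.11. Rps19, a protein of the small subunit, was at 527, 580 and 674 TPM with sgBgal and 750, 726 and 813 TPM with sgPpia#3.2, without overlap (log2 fold change 0.37, adjusted p = 0.235). Rps14 was at 2921, 3286 and 4501 against 3900, 5265 and 5119 TPM, and Rpl22 at 125, 98.9 and 119 against 131, 142 and 153 TPM. The medians of the list in Restored cells were 0.11, 0.29 and 0.13. Fold changes also differed with gene length. Among 4 classes of equal size by exonic length, the shortest (2674 bases or less) had a median fold change of 0.02 and the longest one of -0.155. Across 11513 genes with a known length the rank correlation of length with the difference was -0.28, -0.11 and -0.28 in the 3 lines, a description over genes of the same libraries, and its part in the ribosomal protein values was not tested.

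Oxidative phosphorylation genes (31 tested) had 8 lower and 2 higher in 3 of 3 lines and a median of -0.038. The medians by line were 0.059, -0.25 and 0.061, and without 4711-18 the median was 0.045, with 16 higher and 8 lower in both lines, against 16.7% and 48.3% of all genes. Ndufs1 and Sdha, long subunits of complexes I and II, had differences of -0.31, -0.81 and -0.20 and of -0.16, -0.48 and -0.29, both lowest in 4711-18. No gene of the mitochondrial genome was found in the table by its symbol. Among 11 Notch genes 4 were lower and 1 higher, at a median of -0.0086, which was -0.14 without 4711-18. Hes1, the repressor that Notch induces, was at 298, 234 and 149 TPM with sgBgal and 142, 73.4 and 115 TPM with sgPpia#3.2 without overlap (log2 fold change -1.03, adjusted p = 0.319), and Notch1 had differences of -0.75, -0.88 and -0.34.

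No chemokine or cytokine gene was called. Of 17 tested, 7 were lower and 0 higher in 3 of 3 lines, and the medians by line were -0.79, -0.026 and -0.40. Without 4711-18, 15 of 17 were lower in both lines, against 48.3% of all genes, at a median of -0.58. Csf1, a growth factor of macrophages, was at 77.6, 116 and 91.5 TPM with sgBgal and 30.6, 89.8 and 74 TPM with sgPpia#3.2 (log2 fold change -0.66, adjusted p = 0.242). Ccl20 was at 133, 74.5 and 81 against 18.5, 126 and 41.7 TPM and Cxcl5 at 885, 181 and 32.8 against 310, 227 and 14.3 TPM, so both were higher in 4711-18 and lower elsewhere. Among 24 immediate early genes 8 were lower and 1 higher, near the share of all genes, at a median of -0.40 with 4711-18 and -0.19 without it. The medians by line were -0.35, -0.80 and 0.0096. Egr2, Nr4a1 and Egr3, factors induced within minutes by growth signals, had fold changes of -1.65, -1.54 and -1.04 with standard errors of 1.00, 0.74 and 0.54, and without 4711-18 Egr2 and Nr4a1 were at -0.80 and -0.98. In the interferon list (15 of 28 tested) 3 were lower and 2 higher at a median of -0.11, and Irf1, a factor of that response, had differences of -1.37, 0.0071 and -0.62. In the antigen presentation list 4 of 9 were higher and 1 lower, at a median of 0.17. H2-D1, a class I heavy chain, was at 54.1, 112 and 119 against 75.8, 211 and 131 TPM, and B2m, the light chain, at 257, 235 and 294 against 273, 263 and 402 TPM.

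The sgPpia#3.2 sample of 4711-18 differed from its sgBgal sample more than the other pairs did. The standard deviation of the differences over all genes was 0.332, 0.558 and 0.251 in the 3 lines, and 370 genes were higher and 478 lower by at least 1 in 4711-18, against 60 and 151 in 4711-1 and 31 and 25 in 4716-11. With sgPpia#4.1 against the same sgBgal sample, that standard deviation was 0.38, 0.264 and 0.215. In Restored cells, sgPpia#3.2 gave 0.277, 0.457 and 0.202, so 4711-18 had the widest spread there too. The sgPpia#3.2 library of that line had the lowest Ppia level and the highest Cdkn1a level of the 6 samples. Across genes, the differences of 4711-1 and 4716-11 had a correlation of 0.292, and those of 4711-18 one of 0.125 and 0.13 with the other lines. Control and Restored differences of the same line had correlations of 0.376, 0.173 and 0.33. These values describe 11722 genes of the same libraries.

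The genes that set this sample apart included those of the integrated stress response, by which cells answer amino acid shortage and misfolded protein. Of 25 tested, 24 were lower in 4711-1 and 24 higher in 4711-18, with medians of -0.55, 1.28 and -0.004. Trib3, a pseudokinase of that response, was at 37.6, 24.9 and 27.1 TPM with sgBgal and 18.4, 260 and 36.3 TPM with sgPpia#3.2. Nupr1, a stress protein, was at 258, 114 and 119 against 178, 395 and 156 TPM, and Eif4ebp1, which restrains translation, at 301, 361 and 389 against 366, 992 and 429 TPM. Over all 3 lines the median of the list was 0.25, and without 4711-18 it was -0.29. In the Restored cells of 4711-18 it was -0.97, opposite in sign to the Control cells of that line. Of 24 tested genes of hypoxia and glycolysis, 23 were higher in 4711-18 and 18 in 4711-1, while 21 were lower in 4716-11, and the medians were 0.11, 1.09 and -0.19. Over all 3 lines the median was 0.31, and without 4711-18 it was -0.046. Bnip3, a mitophagy receptor induced by low oxygen, was at 59.4, 69.9 and 134 TPM with sgBgal and 98.9, 488 and 169 TPM with sgPpia#3.2, and was higher in 3 of 3 lines in Restored cells too (0.74, 1.08 and 1.18). Ankrd37 was at 7.2 against 108 TPM in 4711-18, and Ddit4, an inhibitor of mTOR, at 119 against 584 TPM.

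**Figure D4:**
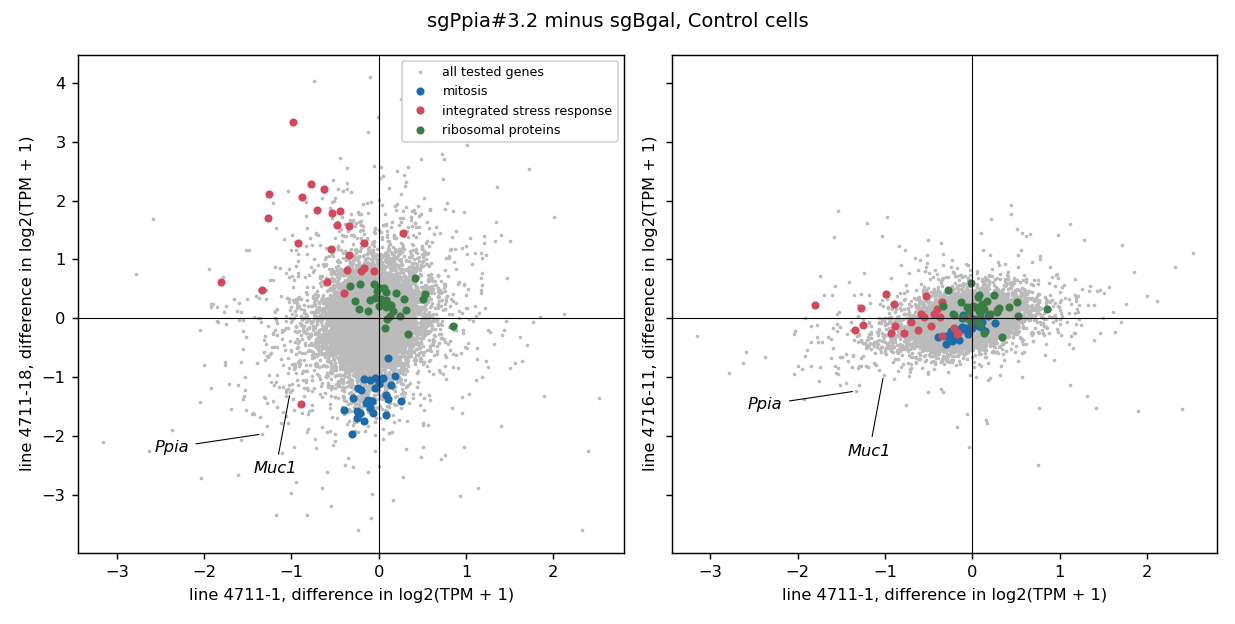
Difference in log2(TPM + 1) between sgPpia#3.2 and sgBgal in 4711-18 (left) and 4716-11 (right) against that in 4711-1, for all 11722 tested genes (grey) and 3 gene lists. In 4711-18, 24 of 25 integrated stress response genes lie above 0 and all 30 mitosis genes below, whereas Ppia and Muc1 are low in every line.

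Some genes differed most in 1 line, and these are given as a description. In 4711-1 the histone gene H2ac10 was at 43.7 against 4.01 TPM and the lipocalin gene Lcn2 at 123 against 19.6 TPM, while Tnc, the matrix glycoprotein tenascin C, was at 3.41, 0.959 and 0.669 TPM with sgBgal and 16.7, 5.43 and 1.18 TPM with sgPpia#3.2 in the 3 lines. In 4711-18 the collagenase gene Mmp13 was at 6.3 against 124 TPM and the hormone gene Fgf21 at 0.931 against 30.5 TPM, and their differences in the other lines lay between -0.74 and 0.43. Igfbp5, which binds insulin-like growth factors, was lower in 4711-18 and 4716-11 (-3.10 and -1.79). In 4716-11 Nanp, a phosphatase of sialic acid synthesis, was at 8.49 against 1.09 TPM.

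The genes next to Ppia were not called. Of the 5 tested genes on either side of it on chromosome 11, the fold changes lay between -0.37 for Ogdh and 0.30 for Rps15a-ps6, and the median was -0.013. Of these 10, 3 were lower and 1 higher in 3 of 3 lines. Among the chromosomes, the median difference relative to all genes stayed within -0.082 and 0.0714 in every line, and chromosome 11, with 983 tested genes, was at -0.00041, -0.017 and -0.038.

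**Figure D5:**
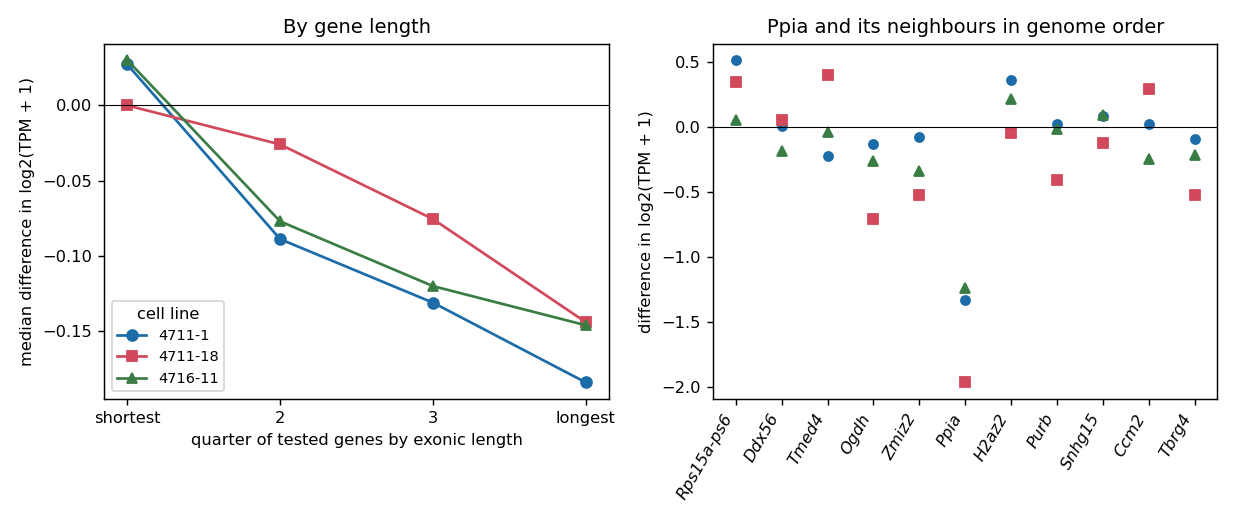
Left, median difference in log2(TPM + 1) by class of exonic gene length, per line, where the shortest class lies at or above 0 and the longest below in all 3 lines. Right, the difference in each line for Ppia and the 5 tested genes on either side of it, where only Ppia lies below -1.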

How the data were processed

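RNA was extracted with the RNeasy Mini Kit and sequenced at Azenta Life Sciences from NEBNext Ultra II libraries, per the labels. The authors deposited TPM for 25239 genes in 18 columns, each summing to the same total, so absolute depth is unknown and no counting interval was computed. The study's methods name Kallisto or HISAT2 for alignment and mm10 as well as GRCm39, without saying which served these samples, and the labels' processing notes list bcl2fastq 2.17 and HISAT2. The counter, the annotation and strand use are not given in the sources used here.

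log2(TPM + 1) was fitted with limma 3.58.1 (R 4.3.3) over all 18 samples, with 1 mean for each of 6 conditions and the cell line as a replicate block (10 residual degrees of freedom). The pairing comes from the cell line in the labels. The deviations of paired samples from their group means had correlations of 0.741, 0.673 and 0.773 across genes. Adjusted p-values are Benjamini-Hochberg over the 11722 genes with at least 1 TPM in 3 or more of the 6 samples. The pseudocount of 1 understates fold changes of low genes.

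Named genes were those fixed for the study's question, all called genes, the 10 in each direction with the largest smallest change, up to 5 per list with the largest fold change (all cyclophilins), the 5 largest per line and direction, and the neighbors of Ppia. Srcap, Tbrg4 and Huwe1 were added as the genes around the short RNAs, and Egr3 and Plekho1 as the next in rank. Some genes that the rule names are not reported here. The members and lists were chosen with earlier results of these data known, and the test of Control against Restored changes was added after seeing the data. Gene names and order came from RefSeq (GRCm38.p6), lengths and the guide site from GENCODE M21. The fit was tested on simulated data. Alternatives tried were median-of-ratios rescaling, a pseudocount of 0.1, no filter and a filter on all 6 samples, no replicate block, the 6 samples alone, eBayes with trend and robust estimates, no minimum fold change and leaving out each line.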

Additional observations from a re-analysis of the deposited data

How the results depend on the processing

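The 2 calls depend on the fit. The number of genes called was 1 with median-of-ratios rescaling, 1 with no filter on low values, 0 with no replicate block, 0 with the 6 samples only and a replicate block, and 0 with the 6 samples and no replicate block, and leaving out any 1 line gave 0 (from 0 to 0). It stayed at 2 with a pseudocount of 0.1, with TPM of at least 1 in all 6 samples, with trend and robust estimates and with no minimum fold change. Genes at an unadjusted p under 0.05 numbered 314, 1235 and 166 in the 3 fits without a call, in the order above, and between 857 and 1198 without 1 line. The fold change of Ppia was -1.51 in these 3 fits too, with adjusted p-values of 0.408, 0.465 and 1, and was -1.60 without 4711-1, -1.28 without 4711-18 and -1.65 without 4716-11 (adjusted p = 0.18, 0.122 and 0.126). The cause was not tested, but these fits hold fewer samples or leave the difference between lines in the spread. Over 104 other single genes and their alternatives, 1115 of 1136 values kept direction and call, 8 lost the call (Muc1) and 13 turned sign. Without 4711-18 the fold changes became -0.072 for Ankrd37, -0.19 for Cdkn1a, -0.51 for Ddit4, -0.415 for Fgf21, -0.074 for Nupr1, -0.068 for Rb1, 0.25 for Rrm2 and -0.29 for Trib3. Without 4711-1 they became 0.56 for Lcn2, 0.0084 for Mdm2 and 0.025 for Rbl2, without 4716-11 -0.00319 for Rb1, and with rescaling 0.043 for Mdm2. None of these passed the test. Of the medians of 33 lists, 7 changed sign with rescaling, 5 without 4711-1, 5 without 4711-18, 2 without 4716-11 and 1 with TPM of at least 1 in all 6 samples. The 5 without 4711-18 were the integrated stress response, hypoxia and glycolysis, oxidative phosphorylation, Module 5 and the non-epithelial markers (Cd68).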
